A study of Mus musculus with 66 samples.

Results

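The comparison described here is postnatal day 6 (P6) against postnatal day 3 (P3) in the mouse cerebellum. It rests on 12 of the 66 bead arrays of a developmental time course: 3 C57BL/6J and 3 DBA/2J arrays at P3 and 3 of each at P6, taken by the strain and age that the labels give. Each array measured total RNA of 1 whole-cerebellum sample. C57BL/6J and DBA/2J are inbred strains, the labels name no treatment, and strain and age are the only labels that differ between the groups. The labels call the replicates biological; neither the sex of the mice nor any pooling of tissue is stated in the sources used here, so p-values measure the spread between these samples. The change from P3 to P6 was taken as the mean of both strains with equal weight, then in each strain alone, then as the difference between strains, and last against the change over the 3 days before P3. The 6 P0 arrays gave means for that last comparison alone, while all 66 arrays entered the normalization, the filter and the estimate of the spread behind every test.

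In the first postnatal week granule cell progenitors divide in the outer layer of the cerebellum under Sonic hedgehog (SHH) from Purkinje cells, and their daughters start to move inward. Purkinje cells extend dendrites, Bergmann glia and astrocytes mature, and oligodendrocyte precursors enter the white matter. Precursors that commit to the lineage pass through a premyelinating stage and then make the lipids and proteins of compact myelin.

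All levels below are log2 signals after joint quantile normalization, with a median of 6.44 on every array. The cerebellar homeobox gene En2 lay between 11.08 and 11.60 on the 12 arrays. Across probes, which do not count as replicates, arrays of the same group and chip had r of 0.9834 to 0.9957, and other arrays of a group 0.9717 to 0.9891. The 12 arrays lay on 5 chips in 3 array series, an array series being a run of chips that share the first digits of their label numbers. 4 of the 6 P3 arrays shared 1 chip with a single P6 array, so values within chips or series are given beside the main ones. Xist, transcribed from the inactive X chromosome, read 6.54 on DBA/2J P3 replicate 3 and 6.57 on DBA/2J P6 replicate 1 and between 9.32 and 11.86 on the other arrays. None of the 4 measured members of the sex-linked list was called, and its median change was 0.13.

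Over all genes the 3 days brought many small changes and few large ones. Of 19134 genes measured, 2749 changed (14.4%), with 1517 higher at P6 (7.93%) and 1232 lower (6.44%), at an adjusted p under 0.05 from limma with the Benjamini-Hochberg method over 26645 kept probes. At least 2-fold higher were 20 genes (0.105%), and 31 were at least 2-fold lower (0.162%). In C57BL/6J alone 1195 genes changed (6.25%, with 2.57% higher and 3.68% lower) and in DBA/2J alone 296 (1.55%, with 1.07% higher and 0.476% lower). Single arrays moved these counts. Against 1566 probes called in C57BL/6J there were 371 without P3 replicate 1 and 2806 without P3 replicate 3, and against 365 in DBA/2J there were 99 without P6 replicate 3 and 1680 without P6 replicate 1. The C57BL/6J probes were 735 higher and 831 lower, but 771 and 549 with arrays scaled to equal medians. Higher calls were also the more numerous with the authors' matrix (941 and 736), the chip as a fixed block (720 and 579) and array weights (6875 and 6338). The same held without C57BL/6J P6 replicate 3 (977 and 798) or P3 replicate 1 (193 and 178). In the other alternatives lower calls stayed the more numerous. All 6 P6 arrays lay above all 6 P3 arrays for 214 genes (1.12%) and below them for 284 (1.48%). Of the 3478 called probes (13.1%), 65.2% kept the call with the array series as a block and 32.8% with the chip as a random block. With that series block 8.33% of genes were higher and 4.89% lower, with the chip as a random block 2.96% and 3.13%, and with the chip as a fixed block 3.11% and 2.79%. Arrays scaled to equal medians gave 6.5% and 5.16%, and the 12 arrays fitted alone 3.19% and 4.15%. Counts of list members below are to be read beside these shares. Of the 61 probes called and changed at least 2-fold (0.0976% higher and 0.131% lower), 59 had the same sign in all 3 comparisons that could be made within 1 batch and strain. Among all 3478 called probes 2580 did (74.2%). The 3 comparisons were C57BL/6J and DBA/2J within 1 array series, each with 1 P3 and 2 P6 arrays, and DBA/2J within 1 chip, with 2 P3 arrays and 1 P6 array. Within that series the P3 and P6 arrays lay on different chips, so those values still cross chips. The probes were picked on these same arrays, so the agreement is a description.

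Genes of oligodendrocytes, myelin and astrocytes were among the largest rises. Of the 15 largest rises that were called with and without the array series as a block and had the same sign in both strains, 6 were members of the oligodendrocyte and myelin list and 2 of the Bergmann glia and astrocyte list. All 15 kept their call in each alternative tried. In 13 of the 15 the P6 and P3 arrays did not overlap, and 14 were called in C57BL/6J alone and 14 in DBA/2J alone. In bulk tissue, more cells of a type and more RNA per cell cannot be told apart.

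The oligodendrocyte and myelin list holds 29 genes, of which 25 were measured. At P6, 15 of these were higher and 1 was lower, with a median change of 0.74, beside 7.93% higher and a median of -0.01 over all genes. The list median was 0.79 within an array series in C57BL/6J, 0.77 within the same series in DBA/2J and 0.68 within a chip in DBA/2J. With the chip as a random block 14 members were higher and 1 lower, beside 2.96% and 3.13% of all genes. Without any 1 of the 12 arrays, 14 or 15 were higher. The list was written with results of these data known, so its direction is a description.

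Promoters of 3 of these genes are shown because the genes rose together and differ in a short motif, in capitals. It is ACAAAG, or CTTTGT on the other strand, a form of the core of the site bound by SOX factors. Other forms of that core were not searched. Each sequence runs from 250 bases before to 50 bases after the annotated start, 5′ to 3′ on the gene's strand, from RefSeq on GRCm38.p6. The Mobp promoter lies at chr9:120149492-120149791 on the plus strand, that of Mag at chr7:30914814-30915113 on the minus strand, and that of Enpp6 at chr8:46986637-46986936 on the plus strand.
Mobp: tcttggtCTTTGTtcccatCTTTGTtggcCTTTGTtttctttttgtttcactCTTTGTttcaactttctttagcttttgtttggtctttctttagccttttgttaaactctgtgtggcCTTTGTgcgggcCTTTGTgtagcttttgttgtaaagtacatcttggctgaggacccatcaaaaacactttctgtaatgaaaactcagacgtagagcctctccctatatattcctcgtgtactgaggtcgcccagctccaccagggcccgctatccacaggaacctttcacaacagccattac
Mag: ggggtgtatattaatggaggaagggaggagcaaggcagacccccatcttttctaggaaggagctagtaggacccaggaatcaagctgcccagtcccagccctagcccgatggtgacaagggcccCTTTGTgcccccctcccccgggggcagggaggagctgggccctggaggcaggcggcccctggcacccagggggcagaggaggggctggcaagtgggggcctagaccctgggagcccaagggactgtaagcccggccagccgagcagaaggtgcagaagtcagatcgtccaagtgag
Enpp6: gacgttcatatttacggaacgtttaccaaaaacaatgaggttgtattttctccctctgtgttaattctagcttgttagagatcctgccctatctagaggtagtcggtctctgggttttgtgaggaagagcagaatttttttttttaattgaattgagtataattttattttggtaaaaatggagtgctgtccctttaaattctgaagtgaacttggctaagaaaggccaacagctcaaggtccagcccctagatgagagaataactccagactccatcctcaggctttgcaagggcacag

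The motif occurs 6 times in the Mobp window, 1 time in that of Mag and 0 times in that of Enpp6. A count of 0 does not mean that a window lacks other forms of the SOX core. Of 27025 mouse promoters of the same length, 5055 held it on either strand (18.7%), and 1 of them, Mobp itself, held 6 or more copies. Of the list members, 20 had a promoter in the RefSeq table and 5 of these held the motif (25%). Of the 15 largest rises 10 matched the table and 3 of those held it. A match describes letters in a window and shows no binding.

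Mbp encodes myelin basic protein, which compacts the myelin sheath. In C57BL/6J it read 10.48, 10.69 and 10.47 at P3 and 12.98, 13.19 and 12.64 at P6. In DBA/2J it read 11.81, 10.62 and 11.29 at P3 and 13.46, 13.52 and 13.66 at P6. All P6 arrays lay above all P3 arrays, and the DBA/2J P3 arrays were the more spread. The rise was 2.35 ± 0.36 (SE), or 5.08-fold, with an adjusted p of 1.55e-05 by limma and Benjamini-Hochberg. It was 2.39 in C57BL/6J and 2.30 in DBA/2J, and 2 of 3 other Mbp probes were also called higher.

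Mag, myelin-associated glycoprotein of the innermost myelin layer, read 8.20, 8.10 and 7.83 in C57BL/6J at P3 and 10.05, 10 and 9.89 at P6. The DBA/2J arrays read 9.09, 8.36 and 8.55 and then 10.80, 10.51 and 10.75. The ages did not overlap, and DBA/2J lay above C57BL/6J at P6. Mag rose by 1.98 ± 0.21 (adjusted p 4.62e-09, limma with Benjamini-Hochberg), 3.94-fold, with 2.19, 2.09 and 2.07 in the 3 within-batch comparisons.

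Mobp, a small basic protein of compact myelin, stayed between 6.32 and 6.37 in C57BL/6J at P3 and read 8.44, 8.73 and 7.86 at P6. The DBA/2J values were 6.76, 6.42 and 6.72 at P3 and 8.51, 8.56 and 8.58 at P6. The P3 values sat at the array median of 6.44, so the 3.88-fold rise (1.96 ± 0.16, adjusted p 1.53e-12 by limma with Benjamini-Hochberg) may understate the change. Of 3 other Mobp probes, 2 were also called higher. Enpp6, a choline phosphodiesterase that marks newly forming oligodendrocytes, read 8.03, 8.03 and 7.64 in C57BL/6J at P3 and 9.98, 9.92 and 9.66 at P6. In DBA/2J it went from 8.86, 8.16 and 8.24 to 10.34, 10.09 and 10.46. The ages did not overlap in either strain, and Enpp6 rose by 1.92 ± 0.14 (adjusted p 8.64e-14).

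Ugt8a, which makes the myelin lipid galactosylceramide, read 7.22, 7.44 and 7.59 at P3 in C57BL/6J and 8.79, 9.06 and 8.36 at P6. DBA/2J samples read 7.6, 7.9 and 8.15 at P3 and 9.16, 8.92 and 9.14 at P6. The lowest P6 array, in C57BL/6J, lay just above the highest P3 array, in DBA/2J. Ugt8a rose by 1.25 ± 0.15 (adjusted p 7.8e-08, limma with Benjamini-Hochberg), and Fa2h, which hydroxylates myelin fatty acids, by 0.97 (1.88e-08).

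Sox10, a transcription factor of the whole lineage, rose by 0.74 (adjusted p 0.00193, limma with Benjamini-Hochberg), with 8.99 to 9.45 at P3 and 9.75 to 10.2 at P6. Gpr17, a receptor of committed premyelinating cells, rose by 0.82 (0.00592) with overlapping arrays, 8.27 to 9.82 at P3 and 9.48 to 10.39 at P6. With the 12 arrays fitted alone Gpr17 was at 0.82 (0.0627). Bmp4 rose by 0.76, Sirt2, a deacetylase found in myelin, by 0.78 and Cnp, a myelin enzyme, by 0.58. The precursor receptor Pdgfra had a change of 0.19 (adjusted p 0.485), Cspg4, the NG2 proteoglycan, -0.11 (0.616), Olig2 -0.12 (0.706) and Olig1 -0.26 (0.305). These values do not show that the precursor genes stayed level.

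Mog, a protein of the outer myelin surface, was the member that fell, by 0.51 (adjusted p 0.0145). In C57BL/6J it read 7.85, 7.77 and 7.07 at P3 and 6.89, 6.65 and 6.80 at P6, and in DBA/2J 7.54, 7.25 and 7.0 and then 7.06, 6.85 and 7.15. The C57BL/6J ages did not overlap and the DBA/2J ages did. Its change was -0.30, -0.01 and -0.33 in the 3 within-batch comparisons, against -0.51 over all arrays. The call was lost without C57BL/6J P3 replicate 1 (-0.44, 0.0602), without DBA/2J P3 replicate 1 (-0.44, 0.0611) and without DBA/2J P6 replicate 2 (-0.47, 0.0535), and in 5 of 26 alternatives in all. Opalin and Mal, which mark mature oligodendrocytes, had changes of 0.06 and -0.01 and were not called.

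**Figure D1:**
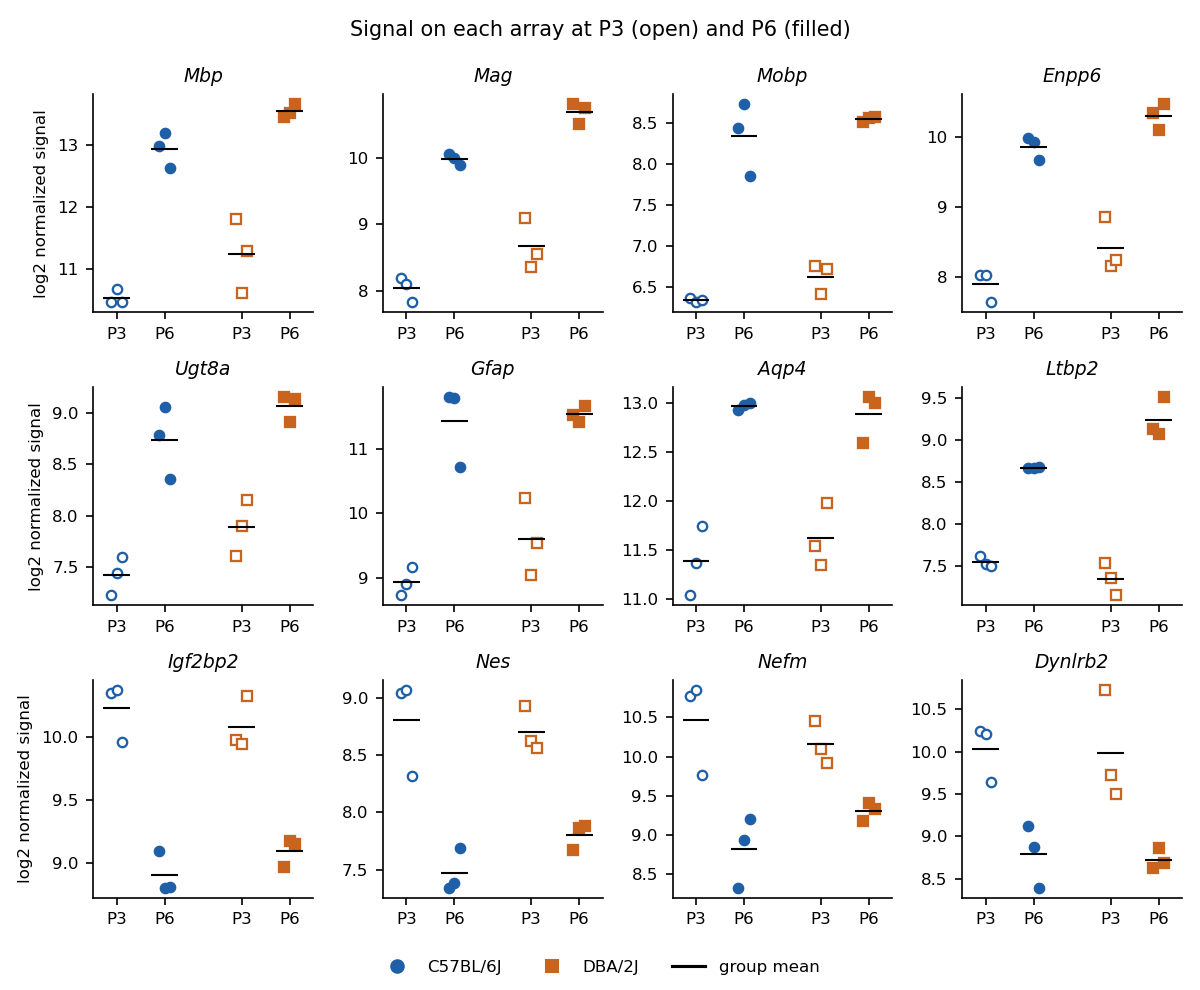
Log2 normalized signal (vertical axis) of 12 genes on each of the 12 arrays, C57BL/6J as circles and DBA/2J as squares, P3 open and P6 filled, with a bar at each group mean. Mbp rose from between 10.47 and 11.81 to between 12.64 and 13.66, and in each of the 12 genes the P3 and P6 arrays did not overlap.

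Some astrocyte genes rose. Of 21 measured members of the Bergmann glia and astrocyte list, 5 were higher at P6 and 0 were lower, with a median change of 0.26, beside 7.93% higher and 6.44% lower of all genes. The list held 5 higher members with the chip as a random block, beside 2.96% of all genes. Without any 1 array 3 to 5 were higher, with 3 without C57BL/6J P6 replicate 1 or DBA/2J P6 replicate 2, and 0 to 2 were lower. Arrays scaled to equal medians left 3 higher. Gfap, the intermediate filament of astrocytes, read 8.73, 8.91 and 9.16 at P3 and 11.81, 11.79 and 10.72 at P6 in C57BL/6J. The DBA/2J signals were 10.24, 9.04 and 9.54 and then 11.54, 11.42 and 11.67. C57BL/6J P6 replicate 3 was the lowest P6 array and still lay above every P3 array. Gfap rose by 2.22 ± 0.24, 4.67-fold, with an adjusted p of 4.62e-09 by limma with Benjamini-Hochberg.

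Aqp4, the water channel of astrocyte endfeet, was already bright at P3, with 11.04, 11.37 and 11.75 in C57BL/6J and 11.54, 11.35 and 11.98 in DBA/2J. At P6 it read 12.93, 12.98 and 13 and then 12.59, 13.06 and 13. The groups did not overlap, and Aqp4 rose by 1.42 ± 0.31 (adjusted p 0.00219, limma with Benjamini-Hochberg). Slc4a4, a sodium bicarbonate cotransporter, rose by 0.98 (0.000181) and Apoe, the main lipid carrier of brain, by 0.66 (0.0175). With the chip as a fixed block Slc4a4 was at 0.57 (0.14). Timp3, a metalloproteinase inhibitor, was called at 0.39 (0.0485) and lost the call in 15 of 26 alternatives. Apoe lost its call with arrays scaled to equal medians (0.49, adjusted p 0.11), without C57BL/6J P6 replicate 1 (0.0506) and without DBA/2J P6 replicate 2 (0.0727). Fabp7, a lipid carrier of radial glia, had a change of -0.54 (0.0692) and Glul, glutamine synthetase, -0.68 (0.0694), neither called.

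2 other large rises are genes that astrocytes are known to express. Gpr37l1, an orphan receptor of astrocytes and Bergmann glia, rose by 1.30 ± 0.18 (adjusted p 2.82e-06, limma with Benjamini-Hochberg) from between 8.68 and 9.53 at P3 to between 10.26 and 10.69 at P6. Agt, angiotensinogen, rose by 1.06 ± 0.09 (1.8e-11) from between 6.74 and 7.1 to between 7.44 and 8.22. Neither set of arrays overlapped.

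The remaining large rises have varied roles. Ltbp2, an extracellular matrix protein related to the TGF-beta binding proteins, read 7.62, 7.53 and 7.5 at P3 and 8.67, 8.67 and 8.68 at P6 in C57BL/6J. In DBA/2J it read 7.54, 7.36 and 7.16 and then 9.13, 9.07 and 9.51. No P3 array reached the P6 range, and Ltbp2 rose by 1.5 ± 0.11 (adjusted p 1.93e-13, limma with Benjamini-Hochberg). Otx1, a homeobox gene, rose by 1.35 ± 0.22 (3.63e-05), from between 8.81 and 9.43 to between 10.16 and 10.8. Purb, a nucleic acid binding protein, rose by 1.07 ± 0.15 (2.49e-06). C4a, complement component 4, rose by 1.18 ± 0.11 (2.15e-10), and its probe may not tell it from the near-identical C4b.

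Ptgds, prostaglandin D synthase of the leptomeninges and of oligodendrocytes, was the least even of the 15. In C57BL/6J it read 12.02, 10.44 and 12.70 at P3 and 13.11, 12.77 and 11.97 at P6, and in DBA/2J 9.60, 8.20 and 7.37 and then 11.96, 10.82 and 11.39. The C57BL/6J ages overlapped and the DBA/2J ages did not. The mean rise was 1.95 ± 0.40 (adjusted p 0.00115), with 0.90 in C57BL/6J (0.333) and 3.00 in DBA/2J (0.0013), and the difference between strains, 2.10, was not called (0.516). Ptgds is itself a member of the meninges and fibroblast list, so the sum over that list is not separate from it. The summed linear signal of the list was 20472 to 27665 at P3 and 24829 to 33091 at P6 in C57BL/6J. In DBA/2J it was 23941 to 27858 and 24486 to 27214. The part of meningeal tissue in the Ptgds values was not tested.

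**Figure D2:**
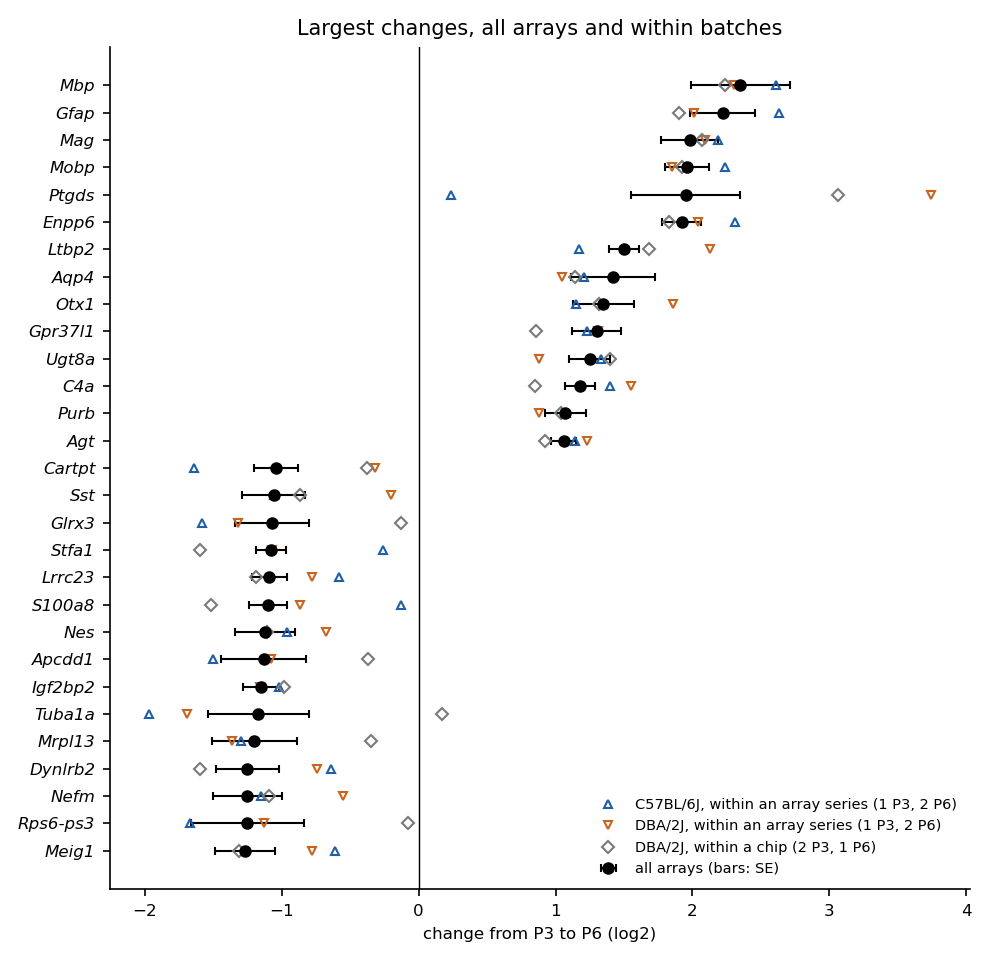
Change from P3 to P6 in log2 units (horizontal axis) of 14 of the 15 largest rises and the 15 largest falls, with all arrays as filled circles with SE bars and 3 within-batch values as open symbols. All 14 rises drawn had the same sign in all 3 within-batch values, as did 14 of the 15 falls.

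Some neuronal genes also rose. Of 24 measured genes of differentiating granule neurons, 7 were higher and 0 lower, with a median of 0.10, beside 7.93% higher of all genes. The count was 5 with the chip as a random block, 3 with the chip as a fixed block and 4 without DBA/2J P3 replicate 1. Cntn2, an adhesion molecule on the axons of young granule cells, rose by 1.04 ± 0.29 (adjusted p 0.0142, limma with Benjamini-Hochberg), from 9.92, 9.8 and 9.7 to 10.94, 10.96 and 11.56 in C57BL/6J and from 8.8, 9.4 and 8.77 to 10.17, 9.57 and 9.44 in DBA/2J. The ages separated within each strain, and C57BL/6J lay higher at both. Slc17a7, the vesicular glutamate transporter VGLUT1, rose by 0.70 (0.00157) and the nuclear factor Nfia by 0.71 (0.00147). With the chip as a fixed block Slc17a7 was at 0.35 (0.105) and Nfia at 0.42 (0.065). Nfix, called at 0.77 (0.0344), lost its call in 12 of 26 alternatives. Neurod1, a transcription factor of granule cells, had a change of -0.04 (0.942) and Gabra6, a receptor subunit of mature granule cells, 0.09 (0.502), with 5.71 to 6.24 on all 12 arrays, below the array median.

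Of 21 measured Purkinje cell genes, 7 were higher and 2 lower, median 0.19, beside 7.93% and 6.44% of all genes. Higher members numbered 2 with arrays scaled to equal medians (6.5% of all genes), 4 with the chip as a random block, 3 with the chip as a fixed block, and 4 without DBA/2J P3 replicate 1 or P6 replicate 3. Pvalb, the calcium buffer parvalbumin that interneurons also express, rose by 1.04 (adjusted p 0.01, limma with Benjamini-Hochberg) but missed the threshold with arrays scaled to equal medians (0.90, 0.0698). Itpr1, the calcium release channel, rose by 0.69 (0.0189), a call lost in 4 of 26 alternatives. These included equal medians (0.151) and the fits without DBA/2J P3 replicate 1 (0.0673) or DBA/2J P6 replicate 3 (0.0612). Foxp2, a transcription factor of young Purkinje cells, fell by 0.69 ± 0.14 (0.00123), from between 8.19 and 8.74 to between 7.55 and 7.97 without overlap. The Purkinje markers Calb1 (0.32, 0.259) and Pcp2 (-0.51, 0.175) were not called.

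Among 16 measured genes of granule cell progenitors and the SHH response, 4 were higher and 1 lower, median 0.19. 2 were higher with arrays scaled to equal medians and 2 with the chip as a fixed block. Sfrp1, a secreted Wnt inhibitor, rose by 0.89 ± 0.17 (adjusted p 0.000398, limma with Benjamini-Hochberg), from between 10.3 and 10.86 to between 11.29 and 11.54 without overlap. Insm1, a zinc finger factor of newborn neurons, rose by 0.72 (0.0115). Its call was lost in 4 of 26 alternatives, such as without DBA/2J P3 replicate 1 (0.58, 0.0637). Of the cyclins that SHH induces, Ccnd1 fell by 0.53 (0.00376) and Ccnd2 rose by 0.47 (0.00402), the latter with 0.17 (0.568) when arrays were scaled to equal medians. Ccnd1 was at -0.39 (0.115) with the chip as a fixed block. The SHH targets Ptch1 (0.29, 0.269) and Hhip (0.21, 0.132) were not called.

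Of 27 measured cell cycle genes 1 was higher and 1 lower, with a median of -0.02, beside 7.93% and 6.44% of all genes. Mki67, the proliferation antigen Ki-67, had a change of 0.33 (adjusted p 0.0959) and Ccnb1, cyclin B1, 0.03 (0.921). The called members Ccne2 (0.43, 0.0423) and Tyms (-0.31, 0.0447) lost the call in 14 and 15 of 26 alternatives. The list median was 0.34 from P0 to P3 and -0.43 from P6 to P9 in C57BL/6J.

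Synapse genes were mostly below the threshold, with 1 of 32 higher and a median of 0.09, and 0 to 4 higher in the alternatives other than array weights, which gave 11. That gene was Snap25, the presynaptic fusion protein, which rose by 0.68 (adjusted p 0.00149, limma with Benjamini-Hochberg), but by 0.41 (0.0822) with arrays scaled to equal medians. Of 27 ion channels and transporters of maturing neurons, 6 were higher and 1 lower, median 0.11. The potassium channel Kcna2 rose by 0.63 (0.00222), the calcium pump Atp2b2 by 0.57 (0.00442) and the extrasynaptic GABA receptor subunit Gabrd by 0.53 (0.000971). Atp2b2 lost its call with the chip as a random block (0.29, 0.228), and Kcna2 with the chip as a fixed block (0.25, 0.251). Glra2, the glycine receptor subunit of immature neurons, fell by 0.49 (0.00637), with -0.34 (0.0679) when the chip was a random block.

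In the list of GABAergic progenitors and interneurons 12 of 16 measured members were not called, 0 were higher and 4 were lower, median -0.14, beside 6.44% lower of all genes. 3 were lower with the chip as a random block and 2 with the chip as a fixed block. Gbx2, a homeobox gene, fell by 0.93 ± 0.12 (adjusted p 7.8e-07, limma with Benjamini-Hochberg), with 9.07, 8.74 and 8.89 at P3 and 7.9, 7.99 and 7.96 at P6 in C57BL/6J and 8.63, 8.87 and 8.62 and then 7.77, 7.94 and 7.69 in DBA/2J. The ages did not overlap in either strain. Npy, neuropeptide Y, fell by 0.99 (0.00073) without overlap, and Sst, somatostatin, by 1.06 ± 0.23 (0.00253). Sst read 11.14, 11.08 and 10.39 in C57BL/6J at P3 and 9.12, 9.55 and 9.61 at P6, but its DBA/2J ages overlapped, 9.74 to 10.92 against 9.14 to 9.94. With the chip as a fixed block Sst was at -0.66 (0.161). Gad1 and Gad2, the GABA synthesizing enzymes, had changes of 0.13 (0.571) and 0.35 (0.164).

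Of 13 measured genes of cerebellar nuclear and unipolar brush neurons, 2 were higher and 1 lower, median 0.02, and 0 were higher with arrays scaled to equal medians. Eomes, the T-box factor of unipolar brush cells, fell by 0.87 ± 0.15 (adjusted p 9.45e-05, limma with Benjamini-Hochberg), from between 8.11 and 8.56 to between 7.2 and 7.88, with -0.49 (0.136) when the chip was a fixed block. Slc17a6, the vesicular glutamate transporter VGLUT2, rose by 0.52, but by 0.36 (0.136) with arrays scaled to equal medians. Tbr1, a T-box factor of the nuclei, had a change of 0.06.

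**Figure D3:**
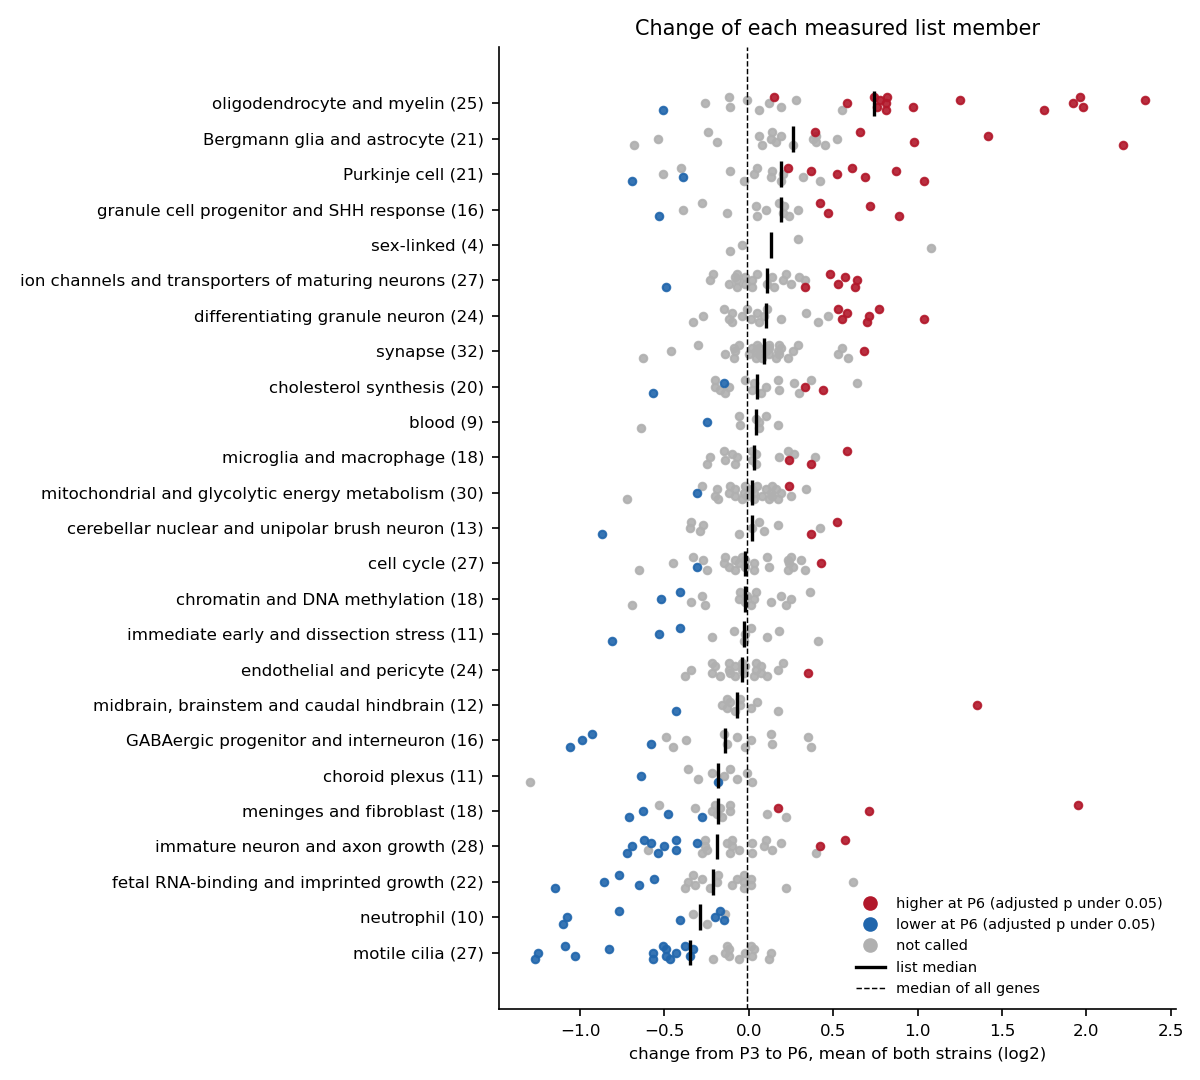
Change from P3 to P6 in log2 units (horizontal axis) of every measured member of each gene list, with the number measured in brackets, members higher at P6 in red, lower in blue and not called in grey. The black bars are list medians, from 0.74 for the oligodendrocyte and myelin list to -0.35 for the motile cilia list, and the dashed line is the median of all genes, -0.01.

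Fetal growth genes fell or were not called. Of 22 measured fetal RNA-binding and imprinted growth genes, 0 were higher and 5 lower, median -0.21, beside 6.44% lower of all genes. Igf2bp2, an RNA-binding protein of fetal tissues, read 10.35, 10.37 and 9.96 in C57BL/6J at P3 and 9.09, 8.8 and 8.81 at P6, and in DBA/2J 9.97, 9.94 and 10.32 and then 8.97, 9.17 and 9.15. All P6 arrays lay below all P3 arrays. It fell by 1.15 ± 0.13 (adjusted p 1.31e-08, limma with Benjamini-Hochberg), with -1.02, -1.16 and -0.98 in the within-batch comparisons.

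Its relative Igf2bp1 fell by 0.86 ± 0.17 (adjusted p 0.000693), from between 7.2 and 8.15 to between 6.51 and 6.74. Dlk1, an imprinted Notch-family protein, fell by 0.65 (0.00525) and Grb10, an imprinted adaptor that restrains growth, by 0.56 (0.0114). The call of Dlk1 was lost in 3 of 26 alternatives, such as with the chip as a random block (-0.51, 0.0702). Lgals1, galectin-1, fell by 0.77 (0.0133), a call lost in 4 of 26 alternatives. Without DBA/2J P3 replicate 1 its change was -0.59 (0.0815). H19, an imprinted noncoding RNA, had a change of -0.38 (0.0785).

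Of 28 measured members of the immature neuron and axon growth list, 9 were lower and 2 higher, median -0.19, beside 6.44% and 7.93% of all genes. 5 were lower with the chip as a random block and 5 with the chip as a fixed block. Lower members numbered 4 without DBA/2J P6 replicate 2 and 5 without C57BL/6J P6 replicate 1 or DBA/2J P6 replicate 3, and 6 to 9 without any other array. Rgs4, a regulator of G protein signalling, fell by 0.72 (adjusted p 0.0088, limma with Benjamini-Hochberg), a call lost in 2 of 26 alternatives. St8sia2, which makes the polysialic acid of NCAM, fell by 0.69 (0.018), a call lost without C57BL/6J P6 replicate 3 (-0.52, 0.0669). The ephrin receptors Epha5 and Epha4 fell by 0.62 (0.00136) and 0.58 (0.0142). Epha4 was at -0.58 (0.0572) with the chip as a fixed block. Dcx, doublecortin, had a change of 0.14 and Tubb3, neuronal beta tubulin, -0.25, neither called.

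Nes, nestin, the intermediate filament of neural progenitors, read 9.04, 9.07 and 8.32 in C57BL/6J at P3 and 7.34, 7.38 and 7.69 at P6. In the DBA/2J samples it was 8.93, 8.62 and 8.56 and then 7.67, 7.86 and 7.88. The ages did not overlap and Nes fell by 1.12 ± 0.22 (adjusted p 0.000825, limma with Benjamini-Hochberg). Nefm, the medium neurofilament, read 10.77, 10.85 and 9.77 in C57BL/6J and 10.46, 10.1 and 9.92 in DBA/2J at P3. At P6 it read 8.32, 8.93 and 9.2 and then 9.18, 9.4 and 9.33, all below the P3 arrays. Nefm fell by 1.25 ± 0.25 (0.00108). In the 3 within-batch comparisons the change of Nes was -0.96, -0.68 and -1.11 and that of Nefm -1.15, -0.55 and -1.09. A further probe of each of Igf2bp2, Nes and Nefm was not called in that direction.

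The 15 largest falls were less even than the rises. 7 had arrays that did not overlap, 11 were called in C57BL/6J and 6 in DBA/2J, and 10 kept the call with the chip as a random block and 8 with the chip as a fixed block. Mrpl13, a mitochondrial ribosomal protein, had a change of -1.20 (adjusted p 0.00755, limma with Benjamini-Hochberg) and -0.59 (0.149) with the chip as a random block. Glrx3, a glutaredoxin, had -1.07 (0.00715) and -0.64 (0.0822), and Apcdd1, a Wnt inhibitor, -1.13 (0.0127) and -0.76 (0.0712). Apcdd1 also missed the threshold without DBA/2J P6 replicate 2 (-1.02, 0.0514).

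Tuba1a, an alpha tubulin of young neurons, read 11.8, 11.56 and 11.69 in C57BL/6J at P3 and 9.64, 9.81 and 11.61 at P6. DBA/2J arrays read 11.54, 11.41 and 11.64 and then 11.64, 9.65 and 10.25. C57BL/6J P6 replicate 3 and DBA/2J P6 replicate 1 stayed at the P3 level, and the latter shared its chip with 4 P3 arrays. The change of -1.17 (adjusted p 0.0294) was -0.48 (0.385) with the chip as a random block and 0.03 with the chip as a fixed block. Tuba1a lost its call in 10 of 26 alternatives and Rps6-ps3, a ribosomal protein pseudogene whose probe may read its parent gene, in 12 (-1.25, 0.0348).

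Genes of motile cilia and of neutrophils were also among the falls. Meig1, known for its part in sperm formation, read 9.56, 9.26 and 8.37 in C57BL/6J and 9.83, 8.69 and 8.25 in DBA/2J at P3. At P6 it read 7.81, 7.71 and 7.92 and then 7.95, 7.52 and 7.4. Replicate 3 was the lowest P3 array of each strain, and the ages did not overlap. Meig1 fell by 1.27 ± 0.22 (adjusted p 0.000117, limma with Benjamini-Hochberg), with -0.52 (0.207) when the chip was a fixed block.

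Dynlrb2, a dynein light chain, read 10.25, 10.21 and 9.64 in C57BL/6J at P3 and 9.12, 8.87 and 8.39 at P6, and 10.73, 9.73 and 9.5 and then 8.63, 8.86 and 8.68 in DBA/2J. It fell by 1.25 ± 0.23 (adjusted p 0.000264), without overlap. Lrrc23, a radial spoke protein, fell by 1.09 ± 0.13 (1.63e-07). In a motile cilia list written after these falls were seen, 27 members were measured, 0 were higher and 15 lower, and the median was -0.35, beside 6.44% lower of all genes. 12 were lower with the chip as a random block (3.13% of all genes), 6 with the chip as a fixed block (2.79%) and 10 with the 12 arrays fitted alone (4.15%). That median was -0.13 and -0.09 within an array series in C57BL/6J and DBA/2J and -0.47 within a chip in DBA/2J. Foxj1, the regulator of motile cilia, had a change of -0.21 (0.102). It read 6.31 to 6.73 on the 12 arrays, near the array median, where a fall may be understated.

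Motile cilia line the ventricle and the choroid plexus. The choroid plexus list had 11 measured members, 0 higher and 2 lower, with a median of -0.18, beside 6.44% lower of all genes. Single arrays decided that count, with 6 lower without DBA/2J P6 replicate 2, 0 without C57BL/6J P3 replicate 2 or DBA/2J P6 replicate 3, and 1 or 2 without any other array. Its summed linear signal was 3375 to 5860 at P3 and 2358 to 2908 at P6 in C57BL/6J, and 8463 to 14824 and 2538 to 25043 in DBA/2J. Ttr, transthyretin, its defining transcript, read 13.57, 13.42 and 12.63 in DBA/2J at P3 and 9.29, 14.4 and 11.61 at P6. DBA/2J P6 replicates 1 and 2 were thus the lowest and highest of those 6. The part of choroid plexus tissue in the cilia values was not tested.

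S100a8, a subunit of the neutrophil protein calprotectin, read 7.94, 7.96 and 6.82 in C57BL/6J at P3 and 6.63, 6.75 and 6.53 at P6. In DBA/2J it read 9.24, 8.33 and 8.25 and then 7.26, 7.36 and 7.4. The ages separated within each strain. S100a8 fell by 1.1 ± 0.14 (adjusted p 2.55e-07, limma with Benjamini-Hochberg) and Stfa1, a stefin, by 1.08 ± 0.11 (1.57e-09). In a neutrophil list written after these values were seen, 10 genes were measured, 0 were higher and 7 lower, median -0.29, beside 6.44% lower of all genes. The median was -0.11 and -0.14 within an array series in C57BL/6J and DBA/2J and -0.43 within a chip in DBA/2J. 6 were lower with the chip as a random block, 4 with the chip as a fixed block and 3 with the 12 arrays fitted alone. Among the called members, Ltf lay between 6.25 and 6.91, Lcn2 between 6.21 and 6.63 and Retnlg between 6.18 and 6.67 on the 12 arrays. These levels sit near the array median of 6.44, and Lcn2 lost its call in 15 of 26 alternatives. The summed signal of the list was 1121 to 1500 at P3 and 987 to 1045 at P6 in C57BL/6J and 1606 to 2569 and 1120 to 1196 in DBA/2J.

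The other lists are given beside 7.93% higher and 6.44% lower of all genes. Of 18 measured microglia and macrophage genes 3 were higher and 0 lower, median 0.03. A single one was higher without C57BL/6J P3 replicate 1 or 2, C57BL/6J P6 replicate 1 or 2, DBA/2J P3 replicate 2 or 3 or DBA/2J P6 replicate 3, and 2 to 4 without any other array. Lyz2, lysozyme, rose by 0.58 ± 0.1 (adjusted p 9.82e-05, limma with Benjamini-Hochberg). The summed signal of the microglia and macrophage list was 5268 to 5568 at P3 and 6053 to 7324 at P6 in C57BL/6J. In DBA/2J it was 4679 to 6182 and 5300 to 6156. Of 24 endothelial and pericyte genes 1 was higher and 0 lower, median -0.04. Of 18 meninges and fibroblast genes 3 were higher and 4 lower, median -0.18, and 2 were higher and 0 lower with the chip as a fixed block. Cxcl12, a chemokine of the meninges that guides granule cell progenitors, fell by 0.63 and Col3a1, a collagen, by 0.71. With the chip as a fixed block Cxcl12 was at -0.48 (0.178), and with the chip as a random block Col3a1 was at -0.36 (0.172).

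The midbrain, brainstem and caudal hindbrain list, kept as a check on dissection, had 12 measured genes with 1 higher, Otx1, and 1 lower, Isl1 (-0.43, a call lost in 7 of 26 alternatives), median -0.07. The immediate early and dissection stress list had 11 with 0 higher and 3 lower (1 with the chip as a fixed block), median -0.03, among them Egr1, which fell by 0.81 (adjusted p 0.00177) and was at -0.56 (0.172) with the chip as a fixed block. Of 20 cholesterol synthesis genes 2 were higher and 2 lower, median 0.05, with 1 to 4 higher and 0 to 2 lower when any 1 array was left out. Of 30 energy metabolism genes 1 was higher and 1 lower, median 0.02, and of 18 chromatin genes 0 were higher and 2 lower, median -0.02, with Dnmt1, the maintenance methyltransferase, lower by 0.52 but at -0.39 (0.0595) with the chip as a random block.

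The window from P3 to P6 was then set against the equally long window from P0 to P3, using the P6 value minus 2 times the P3 value plus the P0 value. Both windows share the P3 arrays. In each strain most P0 and P6 arrays shared 1 chip that held no P3 array. A chip effect on the P3 values would enter this difference 2 times and cannot be fully told apart from a change of rate. This difference is signed: a positive value marks a later change that was more positive than the earlier one, whether a rise that grew or an earlier decrease that slowed or turned. It was called for 2969 of 19134 genes (15.5%), positive for 1606 (8.39%) and negative for 1363 (7.12%). The later change was the larger in size for 390 of the positive and 553 of the negative ones. Of 3793 probes called (14.2%), 62.5% kept the call with the array series as a block and 12% with the chip as a random block, where 0.533% of genes were positive and 1.6% negative.

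Mobp and Ugt8a had larger changes after P3 than before it. Group means of Mobp were 6.26 at P0, 6.35 at P3, 8.35 at P6 and 10.71 at P9 in C57BL/6J, and 6.35, 6.64 and 8.55 from P0 to P6 in DBA/2J. The P0 and P3 means sat near the array median in both strains. The difference between windows was 1.77 ± 0.28 (adjusted p 1.97e-05, limma with Benjamini-Hochberg) and 1.58 (0.0024) with the chip as a random block. For Ugt8a it was 1.08 (0.00293), with a change of 0.17 from P0 to P3. For Mag it was 1.19 (0.0214), from 0.79 before P3 to 1.98 after. Of 25 measured oligodendrocyte and myelin genes, 4 were called with a positive difference and 1 with a negative one. With the chip as a random block Mobp was the 1 positive call, so Ugt8a and Mag lost theirs. For Mbp, with a change of 2.07 from P0 to P3, it was 0.28 (0.808), and for Enpp6 it was 0.45 (0.216).

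The other 7 genes with the most positive differences were Msl2 (1.42), Celsr2 (1.41), Gdpd4 (1.38), Zfp280b (1.31), Setd1b (1.27), Bcl9l (1.26) and Tac1 (1.23). Their changes ran from -0.63 to -0.91 between P0 and P3 and from 0.32 to 0.78 between P3 and P6, the later change being the larger in size for 3 of them. All 7 lost the call with the chip as a random block. Tac1, the substance P precursor, came nearest there (1.27, adjusted p 0.0565).

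The most negative differences included genes known from vessels, fibroblasts and choroid plexus. Acta2, smooth muscle actin, had a change of 2.1 from P0 to P3 and of -0.32 (adjusted p 0.0972) from P3 to P6. The difference was -2.43 ± 0.23 (9.29e-10, limma with Benjamini-Hochberg). Slc38a5, an amino acid transporter of brain endothelium, had 1.84 and then -0.46, a difference of -2.3 ± 0.22 (9.29e-10). Dcn, decorin of fibroblasts, had 2.62 and then -0.11, a difference of -2.74 (2.46e-05), and Ttr had 3.82 and then -1.30, a difference of -5.12 (0.000181). Lgals1 (-2.37) and Col3a1 (-2.35) were in the same group. All 6 kept the call with the chip as a random block, while Rps6-ps3 (-2.35) and Mrpl13 (-2.3) did not.

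In the lists, 11 of 18 meninges and fibroblast genes, 10 of 24 endothelial and pericyte genes and 7 of 27 cell cycle genes were called with a negative difference, as were 4 of 11 choroid plexus genes, beside 7.12% of all genes. These counts were 9, 8, 2 and 1 with the chip as a random block, beside 1.6% of all genes. A positive difference was called for 1 meningeal gene and for 0 genes of the other 3 lists. Negative calls were also made for 6 of 10 neutrophil, 11 of 27 motile cilia and 6 of 18 microglia and macrophage genes. These lists held 0 positive calls, and 5, 5 and 2 negative ones with the chip as a random block. From P0 to P3 the meninges median had been 1.13 and the endothelial median 0.51. The share of these tissues in each sample was not tested.

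**Figure D4:**
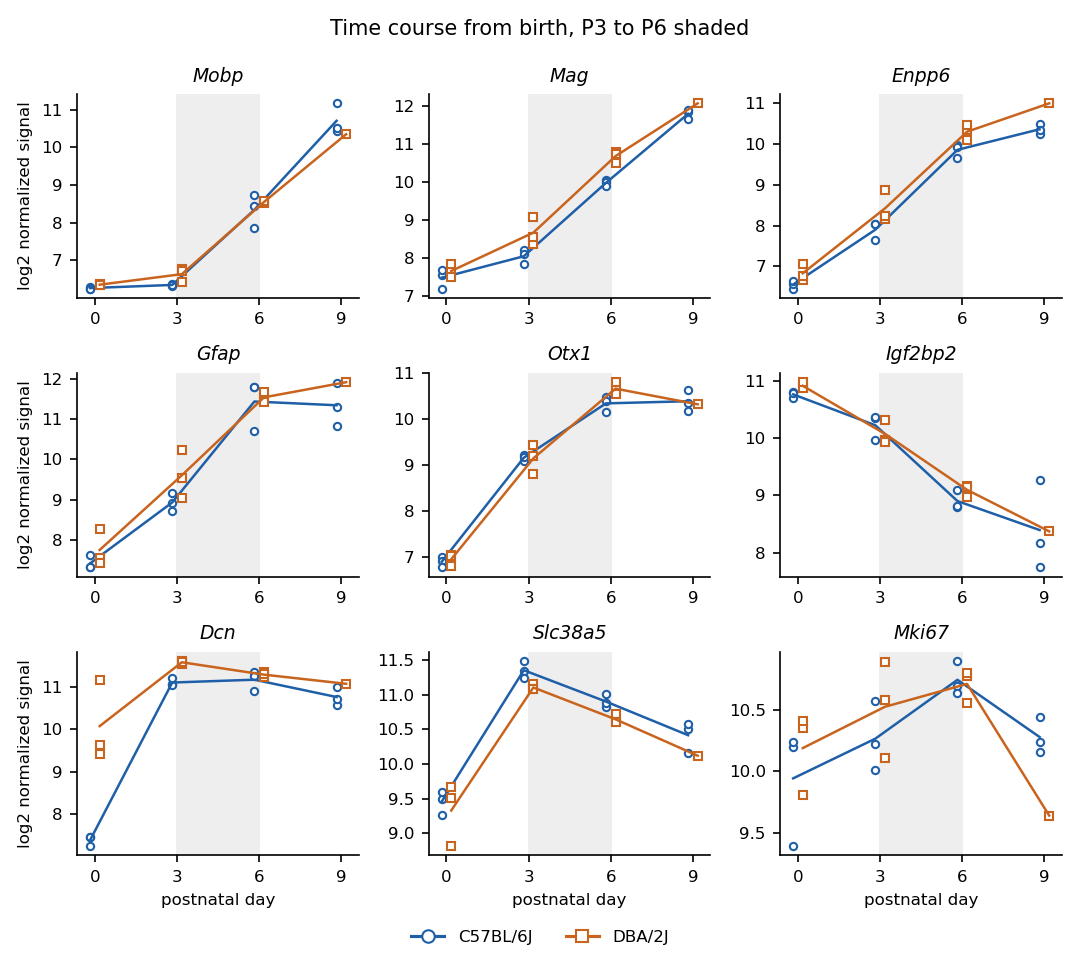
Log2 normalized signal (vertical axis) against postnatal day (horizontal axis, strains drawn slightly apart) for 9 genes, with single arrays as open symbols and lines through group means, and DBA/2J P9 a single array. Mobp lay between 6.26 and 6.64 in the group means up to P3 and climbed after it, while Slc38a5 rose to 11.35 in C57BL/6J at P3 and was lower at P6.

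The strains differed in the change for 42 of 19134 genes (0.22%), 19 with the higher value in DBA/2J (0.0993%) and 23 with the higher value in C57BL/6J (0.12%). The largest differences were in haemoglobin genes. Hba-a1, an alpha globin whose probe may also read Hba-a2, read 12.74, 12.7 and 12.01 in C57BL/6J at P3 and 13.68, 13.43 and 13.46 at P6. The DBA/2J signals read 14.06, 13.9 and 13.62 and then 12.69, 13.49 and 12.51. At P6 all C57BL/6J arrays lay above their P3 range and all DBA/2J arrays below theirs. The change was 1.04 in C57BL/6J and -0.96 in DBA/2J, and the difference was -2.0 ± 0.31 (adjusted p 0.000363, limma with Benjamini-Hochberg).

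Hbb-b1, a beta globin close to Hbb-b2, had changes of 1.07 in C57BL/6J and -0.87 in DBA/2J, a difference of -1.94 ± 0.31 (adjusted p 0.00044). Alas2, the first enzyme of haem synthesis in red cells, read 7.04 to 7.32 at P3 and 7.76 to 8.31 at P6 in C57BL/6J and 8.07 to 8.32 and 7.41 to 8.02 in DBA/2J, a difference of -1.33 ± 0.26 (0.00769). The summed signal of the 9 measured blood genes was 10350 to 16395 at P3 and 26466 to 30825 at P6 in C57BL/6J. In DBA/2J it was 28438 to 37736 and 13541 to 23234. Hba-a1, Hbb-b1 and Alas2 are part of that sum, so it is no separate measure. For the mean of both strains 0 blood genes were higher and 1, Klf1, was lower (a call lost in 7 of 26 alternatives), median 0.04. The globin differences missed the threshold with arrays scaled to equal medians (0.19 for Hba-a1 and 0.195 for Hbb-b1), where the values were -2.0 and -1.96. The part of blood left in the tissue was not tested.

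Gpnmb, a glycoprotein of phagocytes and pigment cells in which DBA/2J carries a known premature stop, read 7.21, 7.54 and 6.89 in C57BL/6J at P3 and 9.08, 8.81 and 8.36 at P6. In DBA/2J it stayed between 6.14 and 6.38 on all 6 arrays, below the array median. The rise of 1.54 in C57BL/6J stood against 0.06 in DBA/2J, a difference of -1.48 ± 0.17 (adjusted p 1.22e-06, limma with Benjamini-Hochberg). Its call was lost only in the fit of the 12 arrays alone (-1.46, 0.173).

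Arrdc4, an arrestin-related protein, read 9.74, 9.46 and 9.92 in C57BL/6J at P3 and 10.63, 10.78 and 10.95 at P6. The DBA/2J samples read 10.74, 10.75 and 10.88 and then 10.41, 9.26 and 10.17. The changes were 1.08 and -0.84, opposite in sign, and the difference was -1.93 ± 0.35 (adjusted p 0.00481). Neat1, a nuclear noncoding RNA, had changes of -0.68 and 0.46, a difference of 1.14 ± 0.21 (0.00528), and by 0.70 (0.213) with the chip as a fixed block. Sirt4, a mitochondrial sirtuin, had changes of -0.77 and 0.36, a difference of 1.12 ± 0.22 (0.00774), lost without C57BL/6J P3 replicate 1 (1.0, 0.0543) or replicate 2 (1.04, 0.0503).

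Cartpt, a neuropeptide precursor, read 8.79, 8.74 and 8.67 in C57BL/6J at P3 and 7.07, 6.99 and 6.93 at P6, and 7.01, 6.61 and 6.77 and then 6.43, 6.51 and 6.4 in DBA/2J. DBA/2J at P3 overlapped C57BL/6J at P6. It fell by 1.04 ± 0.16 in the mean (adjusted p 2.44e-05, limma with Benjamini-Hochberg), with -1.74 in C57BL/6J and -0.35 in DBA/2J. A strain difference of 1.39 ± 0.33 (0.0496) lost its call in 16 of 26 alternatives. Tbata (1.25, 0.0197) and Ddx11 (0.97, 0.0495) lost theirs in 12 and 15.

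**Figure D5:**
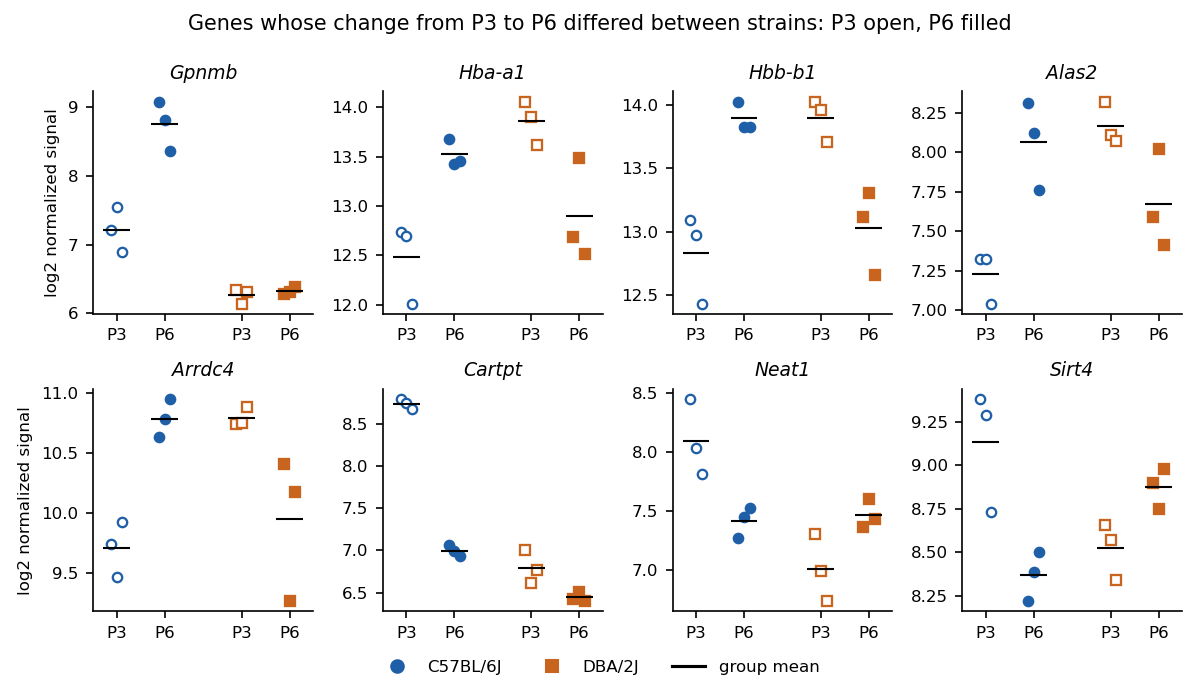
Log2 normalized signal (vertical axis) on each array for 8 genes whose change from P3 to P6 differed between strains, P3 open and P6 filled, C57BL/6J as circles and DBA/2J as squares, with a bar at each group mean. Gpnmb rose by 1.54 in C57BL/6J and stayed between 6.14 and 6.38 in DBA/2J, and Hba-a1 changed by 1.04 and -0.96.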

How the data were processed

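The members, gene lists and alternatives were chosen with earlier results of these data known. The authors deposited 1 signal table for each strain, with intensity as the unit per the file headers, for 46632 probes. The sources used here do not say how these values were made, and no detection p-values came with them. The authors' deposited matrix of the same arrays, whose unit is a score, served only as an alternative. Array medians of the 12 arrays were 80.1 to 84.0 in C57BL/6J and 90.0 to 91.8 in DBA/2J, so all 66 arrays were quantile normalized together and log2 transformed, with no further background correction. Probes were kept where some group of 2 or more arrays had them above the median of each of its arrays (26645 probes), and changes of dim probes may be understated. RefSeq supplied names (26307 probes by symbol, 7973 by older symbol, 12352 keeping the file's name). The kept probe with the highest mean stood for each of 19134 genes. Among named genes another probe was called in the opposite direction for Dnaaf1 alone.

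1 mean per strain and age was fitted to all arrays in limma 3.58.1 (R 4.3.3, statmod 1.5.0; 43 residual degrees of freedom), and tests were two-sided and Benjamini-Hochberg adjusted over all kept probes, with a call at an adjusted p under 0.05. The number of arrays limits the precision. Named were the 15 largest rises and 15 largest falls called with and without the array series as a block with the same sign in both strains; 4 called and both defining members of each list; 10 strain differences; and 8 differences between windows each way. Clone names were passed over, some genes are not reported here, and other genes were named after their values were seen. No pairing by replicate number was assumed, since deviations of same-numbered P3 and P6 arrays correlated with r of -0.0868, -0.1614 and -0.1036 in C57BL/6J and 0.3267, 0.0667 and 0.3529 in DBA/2J. The alternatives were other normalizations, filters and offsets, the authors' matrix, fewer arrays, blocks for chip, array series and replicate number, array weights, and each array left out. Where a setting is named beside a lost call, other alternatives may have lost that call too. The fitting scripts were tested on simulated data with independent noise on each array. No chip effect was simulated, while the estimated correlation of arrays of 1 chip was 0.483, so that test does not cover chip effects.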

Additional observations from a re-analysis of the deposited data

Results flagged for a closer look

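For 42 genes the change from P3 to P6 differed between the strains by limma's test of the difference itself, adjusted with Benjamini-Hochberg. The 10 largest of these differences, with clone names passed over, are flagged here. Given as the DBA/2J change minus the C57BL/6J change in log2 units, the difference was -2.0 for Hba-a1, -1.94 for Hbb-b1, -1.93 for Arrdc4, -1.48 for Gpnmb and -1.33 for Alas2. It was 1.39 for Cartpt, 1.25 for Tbata, 1.14 for Neat1, 1.12 for Sirt4 and 0.97 for Ddx11. Hba-a1, Hbb-b1 and Alas2 are members of the blood list. The summed signal of that list moved up in C57BL/6J and down in DBA/2J, but it contains these genes and is no separate measure.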

How the results depend on the processing

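The main tests called 3478 probes for the mean of both strains, 1566 in C57BL/6J, 365 in DBA/2J, 56 for the strain difference and 3793 for the difference between windows. In that order the counts were 1813, 945, 84 and 3 with only the 12 P3 and P6 arrays, and 1382, 662, 125, 8 and 1667 with only the postnatal arrays. Chip as a random block gave 1483 for the mean, 100 for the strain difference and 518 for the windows. Chip as a fixed block gave 1466 for the mean, 130 in DBA/2J and 454 for the windows. The array series as a block gave 133 strain differences. Scaling to equal medians gave 171 in DBA/2J and 30 strain differences, and normexp correction 237 and 30. Gene-by-gene array weights gave 13676, 13213, 6812, 4784 and 13750. The calls in C57BL/6J were 735 higher and 831 lower, and 771 and 549 with arrays scaled to equal medians. Other settings that turned this balance are given above. Strain differences were 19 higher and 37 lower, and 4 and 26 with arrays scaled to equal medians. The remaining counts lay within 1.5 times the main ones, and the cause of these shifts was not tested. Leaving out 1 array gave 1617 (without DBA/2J P6 replicate 2) to 4621 (without DBA/2J P6 replicate 1) for the mean, 371 (without C57BL/6J P3 replicate 1) to 2806 (without C57BL/6J P3 replicate 3) in C57BL/6J, 99 (without DBA/2J P6 replicate 3) to 1680 (without DBA/2J P6 replicate 1) in DBA/2J, 21 to 105 for the strain difference and 2252 to 5240 for the windows. With the replicate number as a block, whose pairing the data did not bear out, the counts were 3843, 1788, 426, 52 and 4127.

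With the chip as a fixed block the changes reversed for Tuba1a (0.03) and, between windows, for Msl2 (-0.06), Celsr2 (-0.61) and Rps6-ps3 (0.18), and the list medians moved to 0.31 for differentiating granule neurons and -0.13 for midbrain, brainstem and caudal hindbrain. Scaling to equal medians moved the fetal RNA-binding and imprinted growth median to -0.38. List medians were not computed from the authors' matrix. In the alternatives where they were, the other list medians moved by less than the spread between replicates. Over all alternatives, genes named for the mean kept direction and side of the threshold 3450 times, lost the call 361 times, gained it 31 times and reversed 1 time. For the windows these counts were 456 kept, 37 lost and 3 reversed, and for the strain difference 199 kept and 61 lost.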
